A study of Mus musculus with 5 samples.

Results

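The 10 genes described here handle iron in mouse cells: the ferritin subunits Ftl1 and Fth1, the transferrin receptor Tfrc, the divalent metal importer Slc11a2, the iron exporter ferroportin (Slc40a1), the iron regulatory proteins Aco1 and Ireb2, the iron-sensing ubiquitin ligase subunit Fbxl5, the ferritin cargo receptor Ncoa4 and haem oxygenase Hmox1. They were chosen by name from the 54838 genes listed for each library, with their change between the groups already known. That change is therefore a description: intervals and calls from the fit across all genes are printed for the members, and they are not evidence of a change. The RNA came from N2a cells, a mouse neuroblastoma line, transfected with a control siRNA (siCtrl, 2 libraries) or with an siRNA against Ewsr1 (siEwsr1, 3 libraries). Both groups went through the same double-pulse lipid transfection and were collected a day after the last pulse. Total RNA was depleted of ribosomal RNA before sequencing. Ewsr1 belongs to the FET family of proteins that bind nucleic acids. The model is a single tumour line in which the transcript was lowered, not removed.

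Cells take up transferrin-bound iron through the transferrin receptor, keep the excess inside ferritin shells built of heavy (Fth1) and light (Ftl1) chains, and release iron through ferroportin. When iron is scarce, the regulatory proteins encoded by Aco1 and Ireb2 bind a short RNA hairpin, the iron-responsive element. In a 5′ UTR the bound protein blocks translation, as in ferritin and ferroportin messages. In the 3′ UTR of Tfrc it protects the message from decay. Ferritin and transferrin receptor are for this reason textbook opposites, although the ferritin arm acts mainly on translation, which RNA levels do not show.

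The hairpins are printed because the ferritin, ferroportin and transferrin receptor messages share them. These messages are known to carry the element that the search pattern describes. Finding it in them was therefore settled beforehand, and the shares below are not evidence about the members. UTRs of protein-coding transcripts in GENCODE M21 (GRCm38) were searched on the transcript strand for a C, any 5 bases, the letters CAGTG, any base, and then 5 bases that pair with the 5 after the first C, with G-T pairs allowed. No other motif was part of this search. Such a hairpin lay in the 5′ UTR of 28 of 20520 genes (0.137%), among them Ftl1, Fth1 and Slc40a1. It lay in the 3′ UTR of 127 of 20867 genes (0.609%), among them Tfrc with 4 copies. Slc11a2 held one only when 4 of the 5 pairs were required. Capitals mark the bulged C and the 6-base loop, and every sequence runs 5′ to 3′ on the strand of the gene.
Ftl1 5′ UTR, chr7:45459778-45459807, minus strand: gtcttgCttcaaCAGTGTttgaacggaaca
Fth1 5′ UTR, chr19:9982732-9982761, plus strand: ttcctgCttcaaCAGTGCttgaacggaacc
Slc40a1 5′ UTR, chr1:45925464-45925493, minus strand: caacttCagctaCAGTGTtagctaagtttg
Tfrc 3′ UTR, chr16:32631219-32631248, plus strand: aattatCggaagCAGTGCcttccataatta
Tfrc 3′ UTR, chr16:32631598-32631627, plus strand: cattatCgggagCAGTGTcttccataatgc
Tfrc 3′ UTR, chr16:32631663-32631692, plus strand: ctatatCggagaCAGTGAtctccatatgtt
Tfrc 3′ UTR, chr16:32631710-32631739, plus strand: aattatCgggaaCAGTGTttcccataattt
Slc11a2 3′ UTR, 4 of 5 pairs, chr15:100395152-100395181, minus strand: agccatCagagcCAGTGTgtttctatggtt

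The libraries held 15045774 to 21339459 counted reads. Levels are RPKM, reads scaled to exonic length and to the counted reads of the library, after a lost decimal point had been restored. Differences are siEwsr1 minus siCtrl on the log2(RPKM + 0.1) scale from limma, which understates the change of low genes, and a gene is called at an adjusted p under 0.05. Ewsr1 itself was at 71.7 and 72.3 RPKM in siCtrl and at 35.7, 36.3 and 37.6 RPKM in siEwsr1, lower in 3 of 3 libraries. On the first principal component of all tested genes (45.3% of the variance), siEwsr1 replicate 3 lay at -0.39, between the siCtrl libraries (-21.2 and -28.6) and the other siEwsr1 libraries (16.6 and 33.5). The members, the ratios and the called pathway genes are given with and without it. All 10 of 10 neuroblastoma and neuronal markers were expressed, and 3 of them were called higher (all genes, 0.792%). Their summed level was 842 to 866 RPKM in siCtrl and 890 to 1018 RPKM in siEwsr1. Markers of fibroblasts and mural cells summed to 3.23 to 3.44 RPKM in siCtrl and 1.16 to 1.37 RPKM in siEwsr1, mostly Acta2. Acta2 was called lower (log2 difference -1.56, 1 of 3 tested in the list, all genes 0.948%). Col1a1, Col1a2 and Dcn were near 0. Erythroid, macrophage and hepatocyte markers, each list summed on its own, came to at most 1.52 RPKM in any library. Of these, Hba-a1, Hba-a2, Hbb-bs, Hbb-bt, Csf1r, Cd14, Alb and Apoa1 were listed at 0. The part of these markers in the results below was not tested. In bulk RNA, fewer cells of a kind and less RNA per cell cannot be told apart.

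All 10 iron genes passed the filter on low reads. Under the siRNA against Ewsr1 both ferritin messages were lower and the transferrin receptor message was higher in every library, and the ferroportin and haem oxygenase messages were lower by 2.67-fold and 1.80-fold. For the regulators Aco1, Ireb2 and Fbxl5, the importer Slc11a2 and the cargo receptor Ncoa4 the interval of the difference included 0. The limma fit called 1 of 10 members, against 1.74% of the 14772 genes tested. That gene, Hmox1, was lower (all genes called lower, 0.948%), and 0 of 10 were called higher (all genes, 0.792%). At an unadjusted p under 0.05 it took in 5 of 10, against 20.3% of all genes. The groups did not overlap for 39.9% of all genes. Among the members they did not overlap for 2 of 10 genes that were higher (all genes, 18.6%) and 5 of 10 that were lower (all genes, 21.3%). The genes were picked on this contrast, so nothing is read from these shares. The median log2 difference was -0.13 over the 10 genes and -0.01 over all tested genes.

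**Figure D1:**
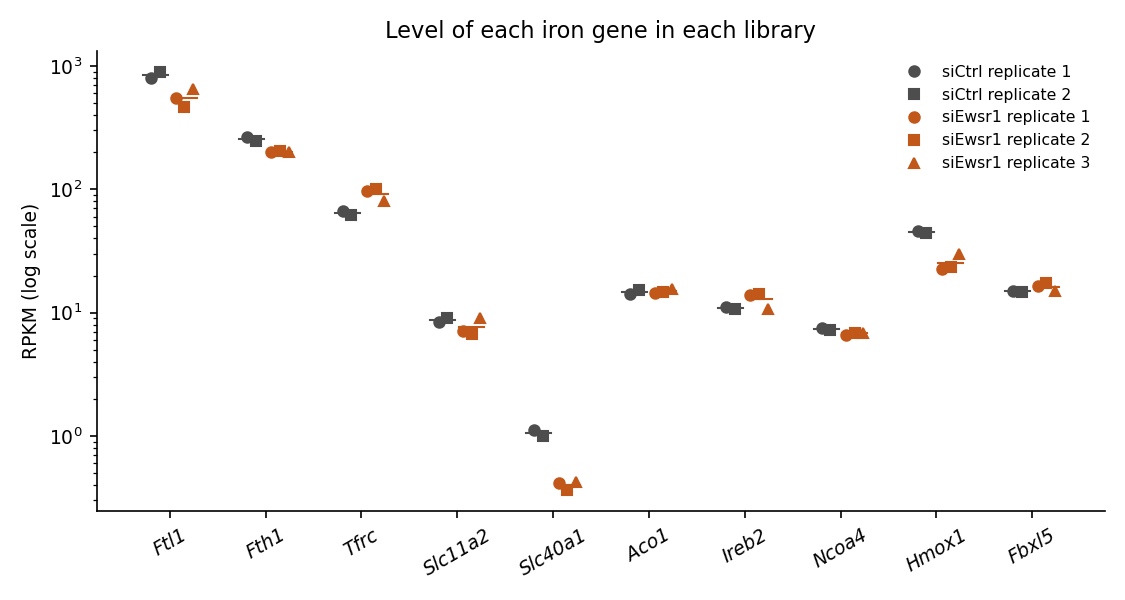
Level of each iron gene in each of the 5 libraries, in RPKM on a log axis, with a short line at each group mean. Ftl1, Fth1, Hmox1, Slc40a1 and Ncoa4 lie lower in every siEwsr1 library, Tfrc and Fbxl5 lie higher, and Slc11a2, Aco1 and Ireb2 overlap.

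Ftl1, the light chain that helps lay down the iron core, was the most abundant of the 10 and ranked 36 of 14772 tested genes by its siCtrl level. It was at 804 and 900 RPKM in siCtrl and at 547, 467 and 649 RPKM in siEwsr1. All siEwsr1 libraries were below both controls, and replicate 3 came nearest to them. It averaged 852 ± 67.8 RPKM (SD, n = 2) in siCtrl and 554 ± 91.4 RPKM (SD, n = 3) in siEwsr1, 1.54-fold lower. On the log2 scale the difference was -0.61 (SE 0.14, 95% interval -0.94 to -0.28), and -0.72 without siEwsr1 replicate 3.

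Fth1, the heavy chain whose ferroxidase site oxidises iron for storage, ranked 166 by its siCtrl level. It was at 265 and 246 RPKM in siCtrl and at 199, 206 and 202 RPKM in siEwsr1. The siEwsr1 libraries were tightly grouped below both controls, with means of 256 ± 13.6 RPKM (SD, n = 2) and 202 ± 3.18 RPKM (SD, n = 3). The log2 difference was -0.31 (SE 0.09, 95% interval -0.52 to -0.11), and it was -0.31 without siEwsr1 replicate 3 as well. Per kilobase, Ftl1 exceeded Fth1 by 3.03- and 3.66-fold under siCtrl and by 2.74-, 2.27- and 3.21-fold under siEwsr1, so the ratio of light to heavy chain overlapped between the groups. These ratios use a length of 866 bases for Fth1 that was solved from the deposited values. With the same reads rescaled to its annotated length they would be 12.1 and 14.7 under siCtrl and 11.0, 9.09 and 12.9 under siEwsr1. The reads that a longer gene model would collect are not known.

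Ferritin genes have near-identical processed copies in the genome, and how reads that fit several genes were counted is not given in the sources used here. Of the listed relatives whose symbols start with Ftl or Fth, 8 had a read in some library and 2 passed the filter. Neither was called. The relatives together came to 0.546% to 0.965% of the Ftl1 and Fth1 level in any library. Ftl1-ps1, the highest of them, was at 4.88 and 5.90 RPKM in siCtrl and at 2.55, 4.18 and 4.02 RPKM in siEwsr1.

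Tfrc, the receptor that carries transferrin-bound iron into endosomes, was at 67.3 and 61.7 RPKM in siCtrl and at 96.2, 100 and 80.0 RPKM in siEwsr1. Every siEwsr1 library was above both controls, and replicate 3 again came nearest to them. It averaged 64.5 ± 3.94 RPKM (SD, n = 2) in siCtrl and 92.2 ± 10.8 RPKM (SD, n = 3) in siEwsr1, 1.43-fold higher. The log2 difference was 0.53 (SE 0.13, 95% interval 0.23 to 0.84), and 0.64 without siEwsr1 replicate 3. Its 3′ UTR, which carries the 4 hairpins printed above, also holds the letters TCACTGC, found in the 3′ UTR of 11.9% of genes on the transcript strand. A second motif, GCAATTT, lies in the 3′ UTR of Fbxl5 and of 7.87% of genes. Both motifs were taken from earlier results of these data and are not independent of them.

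**Figure D2:**
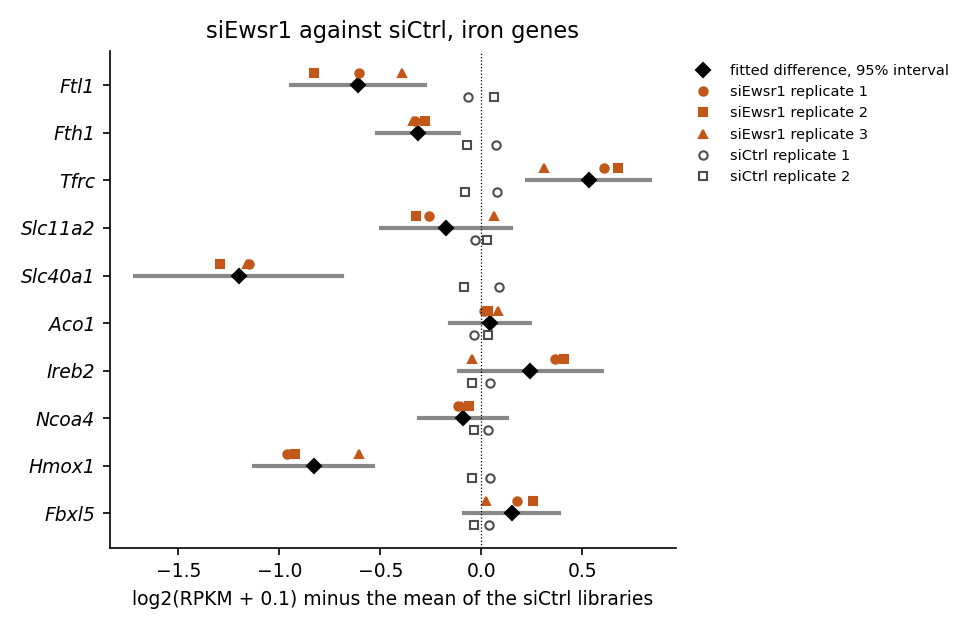
Difference of each iron gene from the mean of the siCtrl libraries on the log2(RPKM + 0.1) scale. Black diamonds with grey bars are the fitted group difference with its 95% interval, orange points are the siEwsr1 libraries and open points the siCtrl libraries, and of the 10 genes only Hmox1 was called after adjustment over all genes.

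The opposite movement of ferritin and transferrin receptor was read within each library, where it does not depend on the scaling between libraries. Ftl1 exceeded Tfrc by 11.95- and 14.6-fold under siCtrl but by 5.68-, 4.65- and 8.11-fold under siEwsr1. Every siEwsr1 ratio was below both control ratios. On the log2 scale the ratio averaged 3.72 ± 0.20 (SD, n = 2) in siCtrl and 2.58 ± 0.41 (SD, n = 3) in siEwsr1, a difference of -1.14, or 2.21-fold. The ratio of Fth1 to Tfrc was 3.94 and 3.99 in siCtrl and 2.07, 2.05 and 2.53 in siEwsr1, again without overlap. Its log2 mean went from 1.99 ± 0.012 (SD, n = 2) to 1.14 ± 0.17 (SD, n = 3), a difference of -0.85, or 1.80-fold. Leaving out siEwsr1 replicate 3 gave log2 differences of -1.36 and -0.94. Both ratios were built from members chosen for their direction, so they describe the size of the shift and do not test it.

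**Figure D3:**
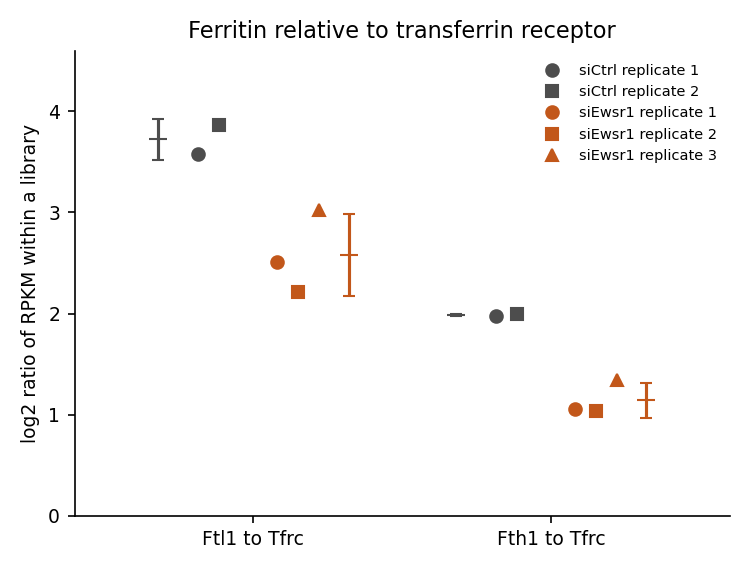
Log2 ratio of each ferritin message to Tfrc within each library, with the group mean and SD drawn beside the points. For both ferritins the 3 siEwsr1 points lie below the 2 siCtrl points, with siEwsr1 replicate 3 the highest of the 3.

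Slc11a2, which moves ferrous iron out of the endosome and into the cell, did not follow the transferrin receptor. It was at 8.44 and 8.999 RPKM in siCtrl and at 7.11, 6.76 and 9.12 RPKM in siEwsr1. Replicate 3 lay above both controls and the other siEwsr1 libraries below them, so the groups overlapped. The log2 difference was -0.17 (SE 0.14, 95% interval -0.50 to 0.15), and -0.30 without replicate 3.

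Slc40a1, the exporter that carries iron out of the cell, was the least abundant member. It was at 1.12 and 1.01 RPKM in siCtrl and at 0.414, 0.364 and 0.420 RPKM in siEwsr1, from 159 and 157 reads against 56, 70 and 66 reads. The 3 siEwsr1 libraries lay close together and far below the controls. Its mean was 1.06 ± 0.0799 RPKM (SD, n = 2) under siCtrl and 0.399 ± 0.0302 RPKM (SD, n = 3) under siEwsr1, a 2.67-fold lower level and the widest relative difference among the 10. The log2 difference was -1.20 (SE 0.21, 95% interval -1.71 to -0.69), and -1.23 without siEwsr1 replicate 3.

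Aco1 encodes the protein that is a cytosolic aconitase when it holds an iron-sulphur cluster and an iron regulatory protein when it does not. It was at 14.1 and 15.2 RPKM in siCtrl and at 14.4, 14.6 and 15.5 RPKM in siEwsr1. The groups overlapped, and the log2 difference of 0.04 had a 95% interval of -0.15 to 0.24, and it was 0.02 without replicate 3. Ireb2, the second iron regulatory protein, was at 11.2 and 10.7 RPKM in siCtrl and at 13.8, 14.2 and 10.6 RPKM in siEwsr1. Replicates 1 and 2 were above the controls and replicate 3 just below them. Its log2 difference was 0.24 (SE 0.15, 95% interval -0.11 to 0.60), and 0.38 without replicate 3.

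Fbxl5, the subunit that senses iron and targets the Ireb2 protein for destruction in iron-replete cells, was at 15.1 and 14.6 RPKM in siCtrl and at 16.4, 17.3 and 15.1 RPKM in siEwsr1. The groups were separated by a narrow margin at replicate 3. The log2 difference was 0.15 (SE 0.10, 95% interval -0.08 to 0.39), and 0.21 without replicate 3. Ncoa4, which delivers ferritin to the lysosome so that its iron can be reused, was at 7.44 and 7.27 RPKM in siCtrl and at 6.64, 6.88 and 6.89 RPKM in siEwsr1. Its siEwsr1 libraries were all slightly lower, and the log2 difference of -0.09 had a 95% interval of -0.31 to 0.13, and it was -0.09 without replicate 3 too.

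Hmox1, the inducible enzyme that opens haem and frees its iron, was at 46.2 and 44.5 RPKM in siCtrl and at 22.7, 23.3 and 29.7 RPKM in siEwsr1. All siEwsr1 libraries were below both controls, and replicate 3 was the highest of them. Its mean was 45.3 ± 1.22 RPKM (SD, n = 2) under siCtrl and 25.2 ± 3.90 RPKM (SD, n = 3) under siEwsr1, 1.80-fold lower. The log2 difference was -0.83 (SE 0.12, 95% interval -1.12 to -0.54), and -0.95 without siEwsr1 replicate 3.

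In siCtrl the order of levels per kilobase was Ftl1, Fth1, Tfrc, Hmox1, Fbxl5, Aco1, Ireb2, Slc11a2, Ncoa4 and Slc40a1. Fbxl5 and Aco1 overlapped between libraries, and the other neighbours in this order did not. In siEwsr1 the means kept this order, with Fbxl5 and Aco1 overlapping and also Slc11a2 and Ncoa4. These levels depend on the exonic length used. For 9 of the 10 it was the union of all annotated exons, up to 9740 bases for Fbxl5, and for Fth1 it was 866 bases, solved from the deposited values. With the same reads rescaled to the annotated 3469 bases, Fth1 would be at 63.9 RPKM in siCtrl, just below Tfrc. The reads that the longer model would collect are not known.

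Which of the 10 passed the threshold depended on the libraries and on the variance model. Limma called 0 members without siCtrl replicate 1, and the same held without the other siCtrl library and without siEwsr1 replicate 1. At an unadjusted p under 0.05 it then took in 4, 5 and 5 of 10, against 11.4%, 9.37% and 13.9% of all genes. Limma without trend and robust moderation, and limma with no filter on low reads, also called 0 members. In each of these 5 of 10 had an unadjusted p under 0.05, against 18.6% and 12.4% of all genes. Leaving out siEwsr1 replicate 3 gave 2 higher (Tfrc, Ireb2) and 3 lower (Ftl1, Slc40a1, Hmox1), against 7.01% and 6.84% of all genes. A variance trend on the number of reads in place of the mean level gave 1 higher (Tfrc) and 3 lower (Ftl1, Slc40a1, Hmox1), against 2.44% and 2.67% of all genes. Limma's voom on the recovered reads gave the same counts, against 2.56% and 3.07%. The sign of every member's log2 difference held in all 16 or 17 alternatives in which it could be fitted.

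Col4a1 and Lrp11 were among the 3 genes whose profile over the 5 libraries was most like that of Ftl1, out of 4651 other protein-coding genes of at least 10 RPKM in siCtrl. Likeness was the root mean square difference of the centred log2 levels, which was 0.057 for Col4a1 and 0.060 for Lrp11, and 34 genes lay within 0.1. Col4a1, a chain of basement membrane collagen, was at 40.9 and 45.9 RPKM in siCtrl and at 25.8, 23.8 and 34.7 RPKM in siEwsr1. The profile of Tfrc was most like that of Tmem30a (0.012), Tmem184c (0.021) and Cip2a (0.024), with 122 genes within 0.1. Tmem30a, a partner of phospholipid flippases, was at 36.7 and 33.7 RPKM in siCtrl and at 52.4, 53.7 and 43.1 RPKM in siEwsr1. In each of these profiles siEwsr1 replicate 3 was the siEwsr1 library nearest to the controls.

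Of 90 other genes listed for iron, haem and iron-sulphur pathways, 72 were tested, 9 fell below the filter, 8 were at 0 and Fech had no sure decimal position. The limma fit called 3 higher (4.17%) and 2 lower (2.78%), against 0.792% and 0.948% of all genes, and 67 were not called. Of the 2 lower, Osgin1 passed the filter on low reads only through siCtrl, the group where it is high. Over the 72 genes the median log2 difference was -0.02, against -0.01 over all genes. The groups did not overlap for 14 of the 72 that were higher (all genes, 18.6%) and 21 that were lower (all genes, 21.3%). The lists were chosen with earlier results of these data known, so nothing is read from these shares. None of the 5 was called without siEwsr1 replicate 1, and none of the 4 that could be fitted (Osgin1 fell below the filter) without either siCtrl library. Limma then called 0 genes of any kind, with 2019 genes at an unadjusted p under 0.05 without siEwsr1 replicate 1, 1656 without siCtrl replicate 1 and 1339 without siCtrl replicate 2. Urod and Slc7a11 were also not called without siEwsr1 replicate 2. None of the 5 was called with no filter on low reads or by limma without trend and robust moderation, and Osgin1 was not called at a pseudocount of 1. Without siEwsr1 replicate 3 the lists had 11 called higher and 9 lower, against 7.01% and 6.84% of all genes.

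The list of partners of Fbxl5 in its SCF ubiquitin ligase had 1 of 3 genes called higher (all genes, 0.792%). That gene was Skp1a, the adaptor that holds the F-box protein. Skp1a was at 149.97 and 147 RPKM in siCtrl and at 306, 309 and 251 RPKM in siEwsr1. It was higher in 3 of 3 libraries, with a log2 difference of 0.97 (SE 0.12, limma adjusted p = 0.0257), and 1.08 without siEwsr1 replicate 3. The scaffold Cul1 (log2 difference 0.27, adjusted p = 0.18) and the RING subunit Rbx1 (0.11, adjusted p = 0.455) were not called by limma. For each of the 3 partners the groups did not overlap, with all siEwsr1 libraries higher (all genes, 18.6%).

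Among enzymes of haem synthesis, 1 of 7 tested was called higher (all genes, 0.792%). Urod, which decarboxylates uroporphyrinogen, was at 5.04 and 5.66 RPKM in siCtrl and at 8.003, 8.12 and 8.90 RPKM in siEwsr1. It was higher in 3 of 3 libraries, by 0.65 on the log2 scale (SE 0.10, limma adjusted p = 0.0391), and by 0.61 without siEwsr1 replicate 3. None of 7 tested genes of haem breakdown and transport was called. The most abundant of these were Pgrmc1, a haem-binding membrane protein, with a log2 difference of -0.11, and the haem exporter Flvcr1, with -0.32 (limma adjusted p = 0.604 and 0.13).

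Nrf2 and Bach1 are the activator and the haem-sensitive repressor that also act on Hmox1 and ferritin genes. Their list held genes that they regulate and also the regulators Nfe2l2, Bach1 and Keap1 themselves. Of 14 tested, 1 was called higher (all genes, 0.792%) and 2 lower (all genes, 0.948%). Gsr, glutathione reductase, was at 32.8 and 31.2 RPKM in siCtrl and at 62.4, 61.8 and 60.7 RPKM in siEwsr1, a log2 difference of 0.96 (SE 0.08, limma adjusted p = 0.0201), and 0.98 without siEwsr1 replicate 3. Slc7a11, the cystine importer, was at 8.83 and 7.31 RPKM in siCtrl and at 4.53, 4.38 and 4.76 RPKM in siEwsr1, a log2 difference of -0.78 (SE 0.12, limma adjusted p = 0.0396), and -0.81 without siEwsr1 replicate 3. Osgin1, an oxidative stress-induced gene, had 11 and 24 reads in siCtrl and 0 reads in each siEwsr1 library. It passed the filter on low reads only through siCtrl, the group where it is high, so its call is not evidence of a change. Against a floor of 3 reads over the siEwsr1 group it was at least 18.995-fold lower, or at least 12.5-fold against siCtrl replicate 1 alone. The limma adjusted p was 0.0312, from a fitted difference of -2.23 that depends on the pseudocount, and 0.0222 without siEwsr1 replicate 3. Over its alternatives the adjusted p ran from 0.00249 to 0.142. The messages of the regulators themselves were not called, with log2 differences of -0.12 for Nfe2l2, which encodes Nrf2, and -0.07 for Bach1. The median over the list was -0.14. The groups did not overlap for 9 of the 14 genes that were lower (all genes, 21.3%) and 2 that were higher (all genes, 18.6%). The 9 include the regulators Nfe2l2 and Bach1, and Osgin1, which passed the filter only through siCtrl. Nqo1 (-0.64) and Srxn1 (-0.61) were among the 9, were not called, and are named here after their values were seen.

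The remaining lists had no call by limma. In iron-sulphur cluster assembly, 0 of 22 tested genes were called, and the most abundant were the chaperone Hspa9 (log2 difference -0.14) and Ciao2a of the cytosolic targeting complex (0.26). In uptake and endosomal redox it was 0 of 6, with Mcoln1 at 0.12 and Slc39a14 at -0.04. In that list the groups did not overlap for 3 of 6 genes, all lower (all genes, 21.3%). They were the metal importer Slc39a8 (-1.59, limma adjusted p = 0.0547), Hfe (-0.88) and Steap3 (-0.35), named here after their values were seen. Slc39a8 had 55 and 71 reads in siCtrl and 18, 11 and 10 reads in siEwsr1. Without siCtrl, the group where it is high, it would not have passed the filter on scaled reads. Its values are therefore not evidence of a change. In cytosolic chaperones and ferritin turnover it was 0 of 4, with the iron chaperones Pcbp2 at 0.09 and Pcbp1 at 0.07. In mitochondrial iron traffic it was 0 of 6, with the transporter Abcb10 at -0.07. The other messages with a known iron-responsive element gave 0 of 2, with the kinase Cdc42bpa at -0.11. In export and systemic signals 1 gene was tested, Tmprss6, and it was not called (-0.42). Over all lists together, 24 of 72 genes had an unadjusted p under 0.05, against 20.3% of all genes. The variance trend on the number of reads called 7 higher and 6 lower over all lists (all genes, 2.44% and 2.67%), and voom called 7 higher and 7 lower (all genes, 2.56% and 3.07%).

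**Figure D4:**
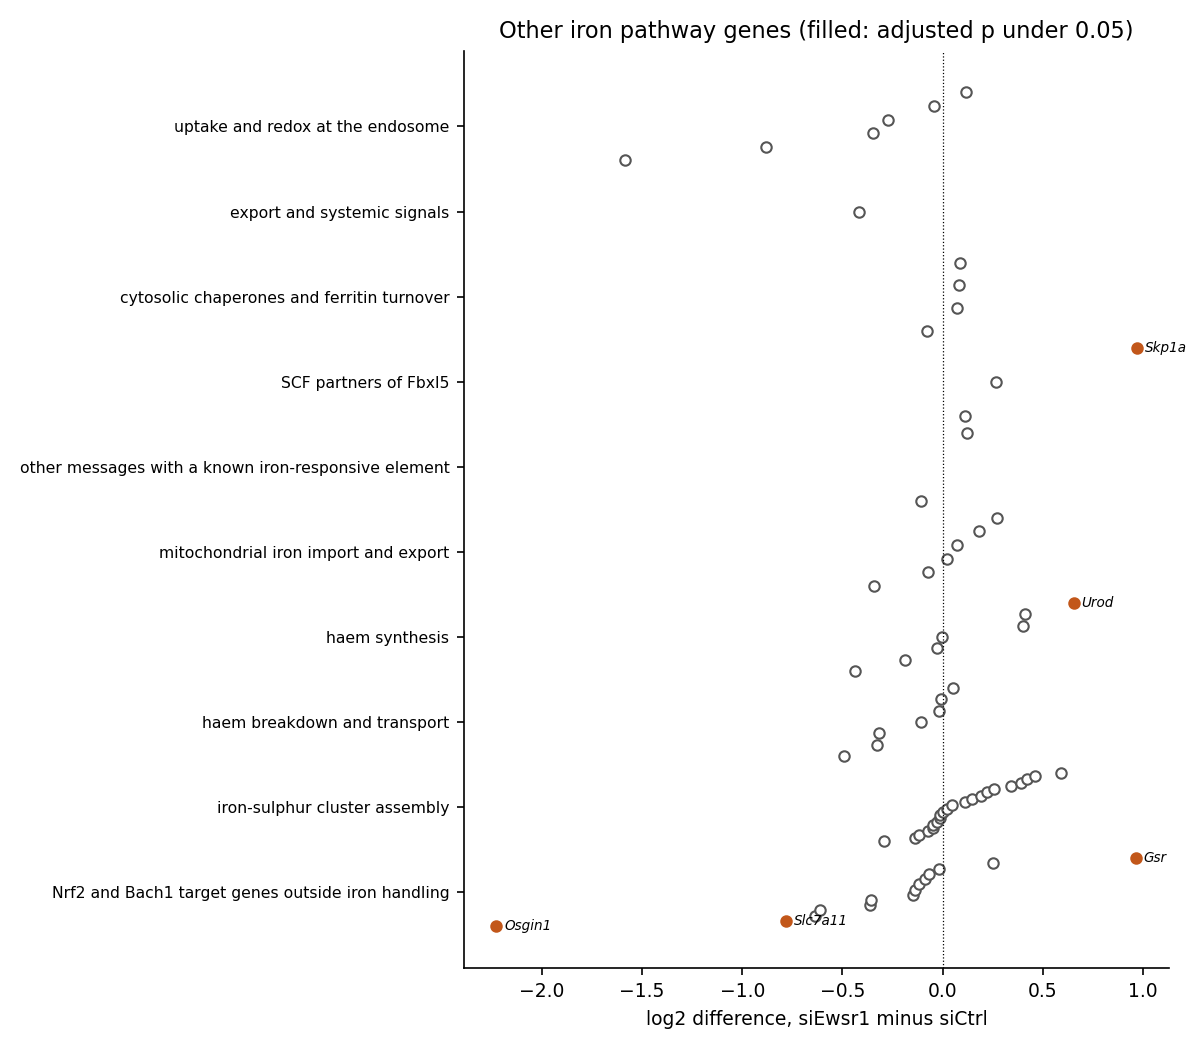
Log2 difference, siEwsr1 minus siCtrl, of each of the 72 tested pathway genes, 1 row of points per list, with the genes that limma called filled and named. Skp1a, Urod and Gsr lie to the right, Slc7a11 and Osgin1 to the left, and most genes lie near 0.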

How the data were processed

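The authors deposited 1 value per gene and library with no unit in the file headers, and these values behave as RPKM. Per the submitters' processing notes, STAR 2.5.2b, featureCounts 1.5.1 and edgeR were used on GRCm38. Not given in the sources used here are the annotation release, the strand setting and how multimapping reads were treated. Values of 1 or more had lost their decimal point in the deposited files. It was restored from the requirement that value, exonic length (GENCODE M21) and counted reads give whole reads, which held within 1e-06 for 98.5% to 98.6% of intact values. Where several decimal positions gave whole reads, a score favoured similar levels across the libraries and the lowest position. The odds of a reading rest on that score, so large differences between libraries were less often kept. Ftl1, Ireb2, Hmox1, Gsr and Ewsr1 were among 1923 kept genes read above the lowest position. Of 27255 genes above 0, 26950 were kept with odds of the reading of at least 20, and the reads of all genes with a whole reading, those left out for low odds included, came within 0.0136% of every library total. The weights of the restoration were settled after such sums and some genes had been seen, without group labels. In a test on simulated data (4000 genes), all 90 kept genes changed by 1.5-fold and 90 changed by 2-fold were read correctly, but only 42 of 96 changed by 4-fold were kept, 41 of them read correctly.

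Genes that reached 10 reads, scaled to the median library, in 2 or more libraries entered limma 3.58.1 (R 4.3.3) on log2(RPKM + 0.1) after trimmed-mean scaling, with a variance trend on the mean log2 level, robust moderation and Benjamini-Hochberg adjustment. On simulated data for this comparison (14444 genes) it called 17 of 14244 unchanged genes, and of 50 genes at each size of change it called 1 at 1.2-fold, 16 at 1.5-fold, 43 at 2-fold and 50 at 4-fold. A trend on the number of reads called 4 unchanged genes, and 2, 31, 49 and 50 of the changed ones. In that test unchanged genes made up a larger share of the first trend's calls than the 0.05 of the adjusted p threshold. The second trend was tried after the calls of the first had been seen, so the first remained the main fit and the second is an alternative. The members and all lists were chosen with earlier results of these data known. Named pathway genes are those called in a list, or otherwise its 2 most abundant in siCtrl; a few genes that the rules select are not reported here. Groups follow the sample titles. Since no label states that replicates were separate cultures, the spread behind the p-values is that of these libraries and may be technical. The siCtrl libraries differed beyond counting noise (26.4% of 14226 genes at an unadjusted binomial p under 0.05).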

Additional observations from a re-analysis of the deposited data

How the results depend on the processing

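No direction of a member, of a called pathway gene or of a ratio reversed in any alternative. Counts are given as higher and lower among all genes (117 and 140 as designed), other iron pathway genes (3 and 2) and members (0 and 1). Pseudocounts of 0.5 and of 1, and median-of-ratios scaling, each gave 5 pathway genes higher and 2 members lower. A filter of 30 reads gave 202 and 284 genes, 5 and 4 pathway genes and 2 members lower. No filter, and limma without trend and robust moderation, each called 0 in every class, with 3351 and 2754 genes at an unadjusted p under 0.05. Genes read at the lowest decimal position only gave 50 and 63 genes and 0 members lower (Ftl1, Hmox1 and Ireb2 are left out there). The variance trend on the number of reads gave 361 and 394 genes, 7 and 6 pathway genes and 1 and 3 members. Voom on the recovered reads gave 378 and 454, 7 and 7, and 1 and 3. Both were added after the data were seen. Leaving out 1 library gave 0 to 1011 genes higher and 0 to 986 lower, 0 to 11 pathway genes higher and 0 to 9 lower, and 0 to 2 members higher and 0 to 3 lower, with the highest counts without siEwsr1 replicate 3. The log2 difference of Ftl1 to Tfrc then ranged from -1.36 to -0.96 and that of Fth1 to Tfrc from -0.94 to -0.79. Deviations of same-numbered libraries from their group means had correlations of 0.03 and -0.12 over genes (2 pairs). With 2 siCtrl libraries these deviations mirror each other, so the correlations cannot show whether replicates were paired. A fit with the replicate number as a block gave 310 and 322 genes and 1 member higher (Tfrc). In that fit siEwsr1 replicate 3 has no siCtrl partner and does not enter the group difference. The share of genes with a hairpin was 0.0536% (5′ UTR) and 0.0863% (3′ UTR) without G-T pairs, and 0.853% and 4.11% with 4 of 5 pairs. The cause of these changes was not tested. The planned edgeR and DESeq2 fits were not run. Count models were kept to deposited counts, and voom on the recovered reads was run in their place. At 2 against 3 libraries an exact permutation test of a single value cannot go below 0.1.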

Other observations

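The deposited Fth1 values give whole reads at an exonic length of 866 bases, whereas the union of its exons in GENCODE M21 is 3469 bases. With the same reads rescaled to the longer length, the siCtrl mean of Fth1 would be 63.9 RPKM in place of 256 RPKM, below Tfrc. The length cancels from the ratio between groups. Of 568 genes whose length had to be solved from the values, 537 lie on chromosomes 17, 18 and 19. Bola3, an iron-sulphur cluster assembly factor, is the only other listed pathway gene with a hairpin of 5 pairs in its 3′ UTR. Without G-T pairs 4 of the 5 remained, and 0 listed pathway genes held a 3′ UTR hairpin under that rule. Bola3 was at 8.73 and 9.37 RPKM in siCtrl and at 12.5, 15.8 and 12.3 RPKM in siEwsr1. It was not called (log2 difference 0.59, limma adjusted p = 0.0826). Whether the hairpin bears on its level was not tested.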
